A study of Homo sapiens with 16 samples.

Results

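VIM, SEPT9, NDRG4, BMP3, SDC2 and TFPI2 are genes whose DNA methylation serves as a marker in tests for colorectal cancer. Every listed region of 7 chromatin immunoprecipitation tables that overlapped 1 of the 6 genes in build hg19, with 5 kb added on each side, was taken as a member. This gave 997 regions of 1255311 in all tables. The intervals were chr10:17270000-17280000 for VIM, chr17:75277000-75497000 for SEPT9, chr16:58497000-58548000 for NDRG4, chr4:81952000-81979000 for BMP3, chr8:97505000-97625000 for SDC2 and chr7:93515000-93521000 for TFPI2. SEPT9, whose interval is 220 kb long, supplied 773 of the regions. NDRG4 supplied 144, VIM 40, SDC2 16, BMP3 13 and TFPI2 11.

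The study set DKO cells against HCT116 cells and asked how DNA methylation bears on the choice of polyadenylation site through CTCF and cohesin. HCT116 is a colorectal carcinoma cell line, and DKO was derived from it by disrupting DNMT1 and DNMT3B, which encode DNA methyltransferases. Both lines were grown in the same medium without a further treatment in the labels, and each was immunoprecipitated once for each of 7 targets. CTCF was a target, as were RAD21 and SMC1, which are subunits of cohesin. H3K27Ac stands for acetylation of lysine 27 on histone H3. Pol2Ser5 and Pol2Ser2 stand for polymerase II with phosphate on serine 5 or serine 2 of the repeats in its tail, and TotalRNAPol2 for polymerase II of any state. The titles name the last pair of libraries total polymerase, whereas their antibody label reads Pol2Ser5, so the identity of that target rests on the title. DKO is a single derived line, and a difference between the lines cannot be told apart from one between clones. DNA methylation and transcripts were not measured in these tables.

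Cytosines followed by guanine (CpG) are often methylated in the genome, but CpG islands at promoters are normally free of methylation. In colorectal tumours many islands gain methylation, and the genes concerned are usually silent. VIM encodes vimentin, the intermediate filament protein of mesenchymal cells. SEPT9 encodes a septin, a filament-forming GTPase, and the marker used in blood tests lies at an internal promoter of this gene. NDRG4 encodes a cytoplasmic protein of the N-myc downstream-regulated family and BMP3 a secreted ligand of the transforming growth factor beta family, and both are used in stool tests. SDC2 encodes syndecan 2, a heparan sulfate proteoglycan of the cell surface. TFPI2 encodes a secreted Kunitz-type inhibitor of serine proteases. CTCF binds DNA less well where its site is methylated, and cohesin often stops at CTCF. H3K27Ac marks active promoters and enhancers, Pol2Ser5 is the form of polymerase near the start of genes, and Pol2Ser2 is the elongating form.

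The sequences before the annotated starts of 4 genes are shown so that their CpG content can be seen. The SEPT9 stretch lies before the start farthest 5′ and is not the internal promoter of the blood marker. Each line gives the 250 bases before the start, 5′ to 3′ on the strand of the gene, from RefSeq on build GRCh38.p14. Capitals mark CpG dinucleotides. The windows are chr16:58463465-58463714 on the plus strand for NDRG4, chr7:93890754-93891003 on the minus strand for TFPI2, chr17:77281249-77281498 on the plus strand for SEPT9 (SEPTIN9) and chr10:17227991-17228240 on the plus strand for VIM. For SEPT9, with 10 windows listed, and NDRG4, with 4, the window farthest 5′ is shown.
NDRG4: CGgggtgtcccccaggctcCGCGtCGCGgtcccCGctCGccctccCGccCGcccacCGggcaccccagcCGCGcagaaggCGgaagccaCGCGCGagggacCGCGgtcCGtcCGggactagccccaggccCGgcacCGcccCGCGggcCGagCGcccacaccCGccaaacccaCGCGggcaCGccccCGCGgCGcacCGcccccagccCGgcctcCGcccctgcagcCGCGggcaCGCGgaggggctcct
TFPI2: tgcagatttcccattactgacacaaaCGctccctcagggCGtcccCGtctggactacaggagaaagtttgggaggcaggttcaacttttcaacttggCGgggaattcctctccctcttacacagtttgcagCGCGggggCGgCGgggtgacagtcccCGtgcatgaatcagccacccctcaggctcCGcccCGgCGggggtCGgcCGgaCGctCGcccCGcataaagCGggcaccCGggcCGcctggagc
SEPT9: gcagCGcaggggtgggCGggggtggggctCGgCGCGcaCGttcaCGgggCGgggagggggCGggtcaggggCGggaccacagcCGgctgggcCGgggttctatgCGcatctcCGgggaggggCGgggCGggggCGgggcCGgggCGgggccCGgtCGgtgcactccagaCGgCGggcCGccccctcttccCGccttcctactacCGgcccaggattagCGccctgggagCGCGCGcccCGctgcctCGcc
VIM: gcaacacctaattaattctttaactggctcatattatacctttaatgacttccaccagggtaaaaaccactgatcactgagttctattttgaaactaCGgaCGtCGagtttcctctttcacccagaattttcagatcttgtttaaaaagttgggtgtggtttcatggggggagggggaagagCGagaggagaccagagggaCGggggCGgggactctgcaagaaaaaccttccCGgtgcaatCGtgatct

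The NDRG4 stretch held 40 CpG, more than 97.8% of the 35116 promoter windows of the same length, and the SEPT9 stretch held 32, more than 90.5%. The TFPI2 stretch held 20 CpG, more than 67.6% of windows, and the VIM stretch 8, more than 43.7%. The median window held 11. These windows are on another build than the tables and were not placed on the regions below. BMP3 and SDC2 are described by their regions.

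A region is described by its reads and by M. The read numbers are the reads in the counting window of each library, and they are not scaled for depth. M compares the densities that the authors normalized, as log2 of DKO divided by HCT116, and its interval is an exact 95% interval for counting error only. A difference of 2-fold was the threshold: M of at least 1 counts as higher in DKO, M of at most -1 as higher in HCT116, and M within 0.5 of 0 as similar. Each line had a single library (1) per target, so differences have no replicate check, and none was tested. The 5′ end of a gene is the end of its interval given above, which is rounded to the kb and is not an annotated transcript start. Distances are positive into the gene. The median region had between 24 reads (Pol2Ser2) and 78 reads (H3K27Ac) in DKO, against between 23 reads (Pol2Ser5) and 94 reads (H3K27Ac) in HCT116. On chromosome 20 the longest run of listed regions without a read in DKO (0 reads) spanned chr20:31368726-31392574, which lies in DNMT3B. It held 34 regions of 6 tables, with 22 to 431 reads in HCT116. The run was found by its lack of DKO reads, so only its place in DNMT3B bears on the label DKO. Colon marker genes were not examined here.

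The 6 genes fell into different patterns at their 5′ ends. SDC2 and TFPI2 had a region at least 2-fold higher in DKO for every target with a region within 2 kb of the 5′ end, which was 6 of 7 targets for each. NDRG4 was higher in DKO for 6 of 7 targets, and the exception was RAD21. VIM was higher in DKO for H3K27Ac and the 3 polymerase targets, with CTCF and cohesin short of 2-fold. SEPT9 and BMP3 had no region past 2-fold there. In numbers, DKO was at least 2-fold higher at 6 of 6 regions within 2 kb at SDC2, 9 of 11 at TFPI2, 12 of 16 at NDRG4, 7 of 17 at VIM, 0 of 3 at BMP3 and 0 of 18 at SEPT9. All of these SDC2 and TFPI2 regions, and most of the NDRG4 regions higher in DKO, were called by the authors in DKO only. Such regions tend to have a high M by the way they were called, so these numbers are a description. No region within 2 kb was 2-fold higher in HCT116. As a background, the share of a whole table at least 2-fold higher in DKO was 20.7% in that of TotalRNAPol2, 20.1% in that of CTCF, 18.6% in that of Pol2Ser2, 14.9% in that of Pol2Ser5, 13.7% in that of RAD21, 11.0% in that of H3K27Ac and 9.36% in that of SMC1. The share at least 2-fold higher in HCT116 was 21.0% for Pol2Ser5 and between 4.67% (SMC1) and 10.9% (Pol2Ser2) in the other tables. These shares are over single tables, whereas the counts per gene run over all targets.

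**Figure D1:**
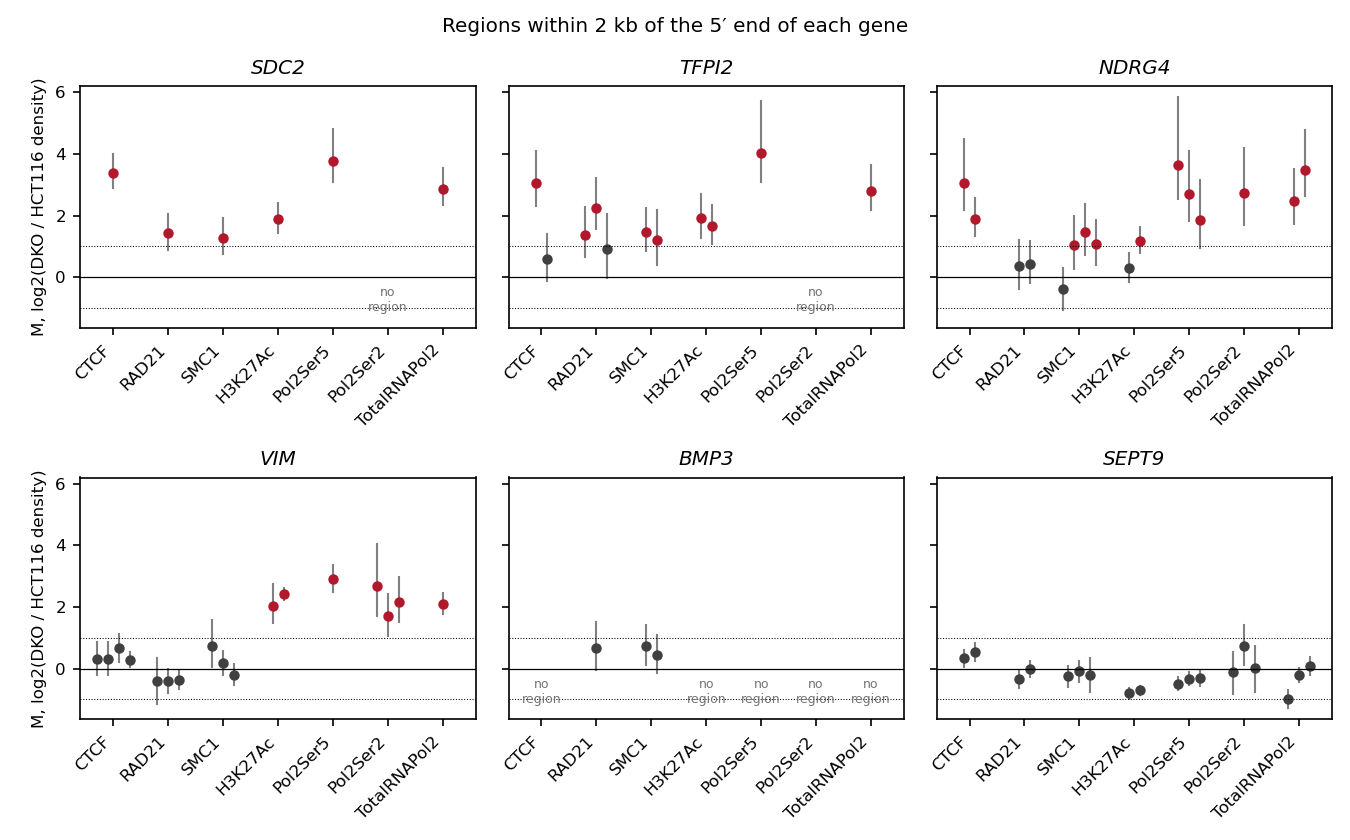
M, on the log2 scale with DKO divided by HCT116, for every region within 2 kb of the 5′ end of each gene, by target. Points are single regions, red at M of 1 or more, grey bars are exact 95% counting intervals, dotted lines mark a 2-fold difference, and the points of SDC2 lie between 1.28 and 3.77 while those of SEPT9 lie between -0.99 and 0.75.

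SDC2 showed the change in nearly every target at 1 place. The CTCF region chr8:97505752-97508220, 0.8 to 3.2 kb from the 5′ end, had 354 DKO reads and 32 HCT116 reads, and M was 3.39 (interval 2.91 to 4.00), a 10.5-fold difference in density. Pol2Ser5 at chr8:97505592-97506925 had 325 DKO reads and 13 HCT116 reads, with M of 3.77 (3.08 to 4.80). Its density stood at percentile 94.2 of the table in DKO and 19.0 in HCT116. TotalRNAPol2 at chr8:97505644-97506753 had 259 DKO reads and 27 HCT116 reads, with M of 2.86 (2.33 to 3.53). The DKO reads were thus several times those of HCT116 for the insulator protein and for polymerase alike.

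The next Pol2Ser5 region, at 2.0 kb, had 140 DKO reads and 27 HCT116 reads, with M of 1.57 (1.01 to 2.26), and TotalRNAPol2 at 2.1 kb had 163 and 25 reads, with M of 2.42 (1.86 to 3.14). Cohesin and acetylation were also higher in DKO at SDC2. The RAD21 regions had 117 and 141 reads in DKO, against 34 and 15 in HCT116, with M of 1.42 (0.89 to 2.05) and 2.76 (2.08 to 3.72). SMC1, the other cohesin subunit, had 105 and 98 reads in DKO, against 34 and 36 in HCT116, with M of 1.28 and 1.10. H3K27Ac had 154 and 146 reads in DKO, against 48 and 37 in HCT116, with M of 1.90 and 2.20. Pol2Ser2 had a region only from 2.3 kb on, with 36 DKO reads and 24 HCT116 reads and M of 1.21 (0.45 to 2.04). All of the regions up to 3.2 kb from the 5′ end were called by the authors in DKO only. Within 1 Mb, regions called in both lines had a median M of 0.19 for CTCF, 0.48 for RAD21 and 0.24 for SMC1. After removal of these medians, M of the RAD21 regions was 0.94 and 2.28 and that of the SMC1 regions 1.04 and 0.86. The second SMC1 region also fell short of 2-fold when recentred on the table's median (0.94) or with the chromosome median removed (0.99).

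The rest of SDC2 held 4 regions. SMC1 had 17 DKO reads and 34 HCT116 reads at 71.0 kb, with M of -1.26 (-2.23 to -0.42), and M of -0.55 at 103.5 kb. Pol2Ser2 had 4 DKO reads and 33 HCT116 reads at 28.7 kb, with M of -1.71 (-3.95 to -0.50), and 12 and 13 reads at 39.8 kb. Elongating polymerase was therefore not listed along the gene body beyond these weak regions. The difference between the lines at SDC2 lay within 3.2 kb of the 5′ end for all regions higher in DKO.

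TFPI2 had the highest Pol2Ser5 ratio of the 6 genes at its 5′ end. Pol2Ser5 at chr7:93519257-93520362 had 190 DKO reads and 6 HCT116 reads, and M was 4.03 (3.10 to 5.71), a 16.4-fold difference in density. TotalRNAPol2 had 157 DKO reads and 19 HCT116 reads, with M of 2.81 (2.19 to 3.65), below the highest 5′ values of NDRG4 (3.47) and SDC2 (2.86). The Pol2Ser5 interval overlaps those of the Pol2Ser5 ratios at SDC2 and NDRG4. Pol2Ser5 density was at percentile 90.6 of its table in DKO and 2.6 in HCT116. No Pol2Ser2 region was listed at TFPI2.

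CTCF at TFPI2 had 128 DKO reads and 13 HCT116 reads at chr7:93519275-93520487, with M of 3.05 (2.32 to 4.09). A weaker CTCF region at the 5′ end of the interval itself had 42 DKO reads and 24 HCT116 reads, with M of 0.59 (-0.14 to 1.40), so its counting interval included 0. RAD21 had 66, 101 and 34 reads in DKO, against 18, 15 and 12 in HCT116, with M of 1.38, 2.26 and 0.90. The RAD21 region with 101 reads in DKO overlaps the strong CTCF region. SMC1 had 82 and 47 reads in DKO, against 23 and 16 in HCT116, with M of 1.48 and 1.20. H3K27Ac had 76 and 83 reads in DKO, against 24 and 31 in HCT116, with M of 1.92 and 1.67. Their densities were at percentiles 49.3 and 55.2 of the table in DKO and 3.2 and 5.2 in HCT116. All 11 regions of TFPI2 were called in DKO only and lie within 1.7 kb of the 5′ end. Regions called in both lines within 1 Mb had a median M of -0.40 for CTCF, 0.28 for RAD21, 0.49 for H3K27Ac and 0.10 for Pol2Ser5. After removal of that median, M of the H3K27Ac regions was 1.43 and 1.18.

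NDRG4 combined a 5′ gain with a gene body in which both lines had signal. Pol2Ser5 at chr16:58496960-58498085 had 101 DKO reads and 4 HCT116 reads, with M of 3.64 (2.55 to 5.85), and its next regions had 95 and 58 reads in DKO, against 8 and 9 in HCT116. TotalRNAPol2 had 80 and 104 reads in DKO, against 14 and 9 in HCT116, with M of 2.48 (1.73 to 3.50) and 3.47 (2.63 to 4.78). Pol2Ser2 had 30 DKO reads and 8 HCT116 reads at 1.4 kb, with M of 2.72 (1.68 to 4.18). In HCT116 these regions were at or below percentile 6.9 of density in their tables.

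CTCF at the 5′ end of NDRG4 had 86 DKO reads and 8 HCT116 reads at chr16:58497941-58498126, with M of 3.06 (2.17 to 4.47). The adjoining region, called in both lines, had 119 DKO reads and 29 HCT116 reads, with M of 1.89 (1.33 to 2.56). RAD21 did not follow to the same degree, with 40 and 55 reads in DKO, against 22 and 30 in HCT116, and M of 0.37 (-0.39 to 1.22) and 0.44 (-0.20 to 1.16). SMC1, of the same complex, had 45, 60 and 64 reads in DKO, against 17, 17 and 24 in HCT116, with M of 1.05, 1.46 and 1.07. Recentred on the table's median, M of these SMC1 regions was 0.90, 1.30 and 0.91. With the chromosome median removed it was 0.81, 1.21 and 0.82, so only the middle region stayed past 2-fold with either scaling. The intervals of the RAD21 and SMC1 values overlap, and the difference between the subunits was not tested. H3K27Ac had 142 DKO reads and 72 HCT116 reads at 0.6 to 2.6 kb, with M of 1.19 (0.78 to 1.63), and M of 1.53 (168 DKO reads and 67 HCT116 reads) and 1.24 at 4.5 and 3.0 kb upstream. At the 5′ end itself H3K27Ac was similar, with 77 DKO reads and 74 HCT116 reads.

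Further into NDRG4 the strongest CTCF sites were similar in both lines. The region at 23.9 kb had 699 DKO reads and 666 HCT116 reads, with M of 0.27, and the region at 46.7 kb had 657 and 618 reads, with M of 0.28. Weaker CTCF regions nearby were higher in DKO, with 124 DKO reads and 40 HCT116 reads at 38.0 kb (M of 1.52) and 186 and 70 at 43.2 kb (M of 1.37). In all, 7 of 21 CTCF regions of NDRG4 were higher in DKO, against 20.1% of the CTCF table, and 0 in HCT116, against 6.33%. Recentred on the table's median, those at 7.4, 40.3 and 40.8 kb fell short of 2-fold, with M of 0.97, 0.81 and 0.91. With the chromosome median removed they also fell short, as did that at 43.2 kb, with M of 0.93. The largest Pol2Ser2 region, 34.3 to 42.0 kb, had 351 DKO reads and 210 HCT116 reads, with M of 0.34, against 2.72 at the 5′ end, and with constant centring M was 1.10 there and 2.15 at the 5′ end. Pol2Ser2 past 2 kb ranged from -0.59, with 19 DKO reads and 46 HCT116 reads at 25.4 kb, to 0.98. RAD21 of NDRG4 was highest at 30.2 kb, with 57 DKO reads and 23 HCT116 reads and M of 0.84 (0.16 to 1.65). It was lowest at 51.9 kb, past the 3′ end of the interval, with 117 DKO reads and 136 HCT116 reads and M of -0.42. The lowest value of SMC1 (70 and 74 reads at 53.1 kb, M of -0.40) also lay past the 3′ end and was similar in both lines. The lowest value of Pol2Ser5 (73 and 43 reads at 44.8 kb, M of -0.01) lay inside the interval. It was similar in both lines, as was CTCF at 50.3 kb (63 and 59 reads, M of -0.02). Pol2Ser5 at 40.8 kb had 64 DKO reads and 14 HCT116 reads (M of 1.39), and at 42.8 kb 56 and 10 (M of 1.66). At 49.1 kb Pol2Ser5 had 90 and 26 reads, with M of 1.00. Of 17 Pol2Ser5 regions of NDRG4, 6 were higher in DKO, against 14.9% of the table, and 0 in HCT116, against 21.0%. TotalRNAPol2 at 43.2 kb had 194 and 65 reads, with M of 1.08, and 0.61 with the chromosome median removed. H3K27Ac was lower in DKO at 46.1 and 48.8 kb, with 73 and 49 reads in DKO, against 175 and 137 in HCT116, and M of -1.04 and -1.22. These regions were the only members of NDRG4 at least 2-fold higher in HCT116. Past the 3′ end of the interval, at 51.5 kb, TotalRNAPol2 had 891 DKO reads and 353 HCT116 reads and M of 0.12 (-0.06 to 0.30), so the 5′ difference in polymerase was not seen in this strong neighbouring region.

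At the 5′ end of VIM the H3K27Ac, Pol2Ser5 and TotalRNAPol2 regions described here were called in both lines. H3K27Ac at chr10:17269509-17272999 had 1234 DKO reads and 243 HCT116 reads, and M was 2.42 (2.22 to 2.63), a 5.34-fold difference in density. The authors called it in both lines, and its density was at percentile 99.8 of the table in DKO and 92.0 in HCT116. Pol2Ser5 at chr10:17270211-17274873 had 642 DKO reads and 48 HCT116 reads, with M of 2.90 (2.50 to 3.38). TotalRNAPol2 at chr10:17270212-17273643 had 659 DKO reads and 86 HCT116 reads, with M of 2.10 (1.78 to 2.45). In HCT116 the densities were at percentiles 82.7 (Pol2Ser5) and 87.4 (TotalRNAPol2), so HCT116 had acetylation and polymerase at VIM, at several-fold lower density than DKO. H3K27Ac was lowest at 3.2 kb, with 221 DKO reads and 165 HCT116 reads and M of 0.59 (0.29 to 0.89).

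Polymerase regions higher in DKO were spread along VIM. All 5 Pol2Ser5 regions were higher in DKO, with M between 2.28 and 3.62, and the lowest, at 5.0 kb, had 104 DKO reads and 12 HCT116 reads. All 9 Pol2Ser2 regions were higher in DKO, with M between 1.10 and 2.92, and the last of them lies beyond the 3′ end of the interval. The Pol2Ser2 regions at 0.1, 1.3 and 9.9 kb had 34, 64 and 81 reads in DKO, against 9, 27 and 15 in HCT116, with M of 2.69, 1.70 and 2.92. With constant centring or with M recentred on the table's median, 8 of the 9 stayed past 2-fold. All 7 TotalRNAPol2 regions were higher in DKO, with M between 1.02 and 2.10, and that at 4.0 kb had 83 DKO reads and 32 HCT116 reads, with M of 1.21. Of these 7, 3 stayed past 2-fold with constant centring, where the lowest M was 0.38, and 5 when recentred. All 9 Pol2Ser2 regions, 4 of the 5 Pol2Ser5 regions and 6 of the 7 TotalRNAPol2 regions were called in DKO only. Such regions tend to have a high M by the way they were called, so these counts are a description.

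CTCF and cohesin at VIM stood apart from polymerase. The 4 CTCF regions within 2 kb had M between 0.29 and 0.66, and the strongest, chr10:17271186-17273593, had 315 DKO reads and 275 HCT116 reads. The highest, at 0.2 kb, had 113 DKO reads and 68 HCT116 reads (M of 0.66), and the nearest 75 and 56 (M of 0.31). At 0.2 kb RAD21 had 100 DKO reads and 112 HCT116 reads (M of -0.40) and SMC1 had 145 and 101 (M of 0.18). Over the strongest CTCF region RAD21 had 192 DKO reads and 229 HCT116 reads, with M of -0.36 (-0.65 to -0.08). SMC1 over that region had 159 and 143 reads, with M of -0.19 (-0.52 to 0.15). As normalized by the authors, the 5′ CTCF site was thus bound at similar density in both lines, while acetylation differed 5.34-fold over it. At 6.8 and 7.2 kb RAD21 was higher in DKO, with 50 and 64 reads in DKO, against 11 and 16 in HCT116, and M of 1.58 (0.72 to 2.77) and 1.48 (0.74 to 2.44). SMC1 there had 56 DKO reads and 23 HCT116 reads, with M of 0.94, and CTCF had 86 and 80 reads, with M of 0.03. Regions called in both lines within 1 Mb of VIM had a median M of -0.32 for CTCF, -0.12 for H3K27Ac and -0.24 for Pol2Ser5. After removal of the CTCF median, M of the 4 CTCF regions within 2 kb was between 0.61 and 0.98. These values are short of 2-fold but outside the range counted as similar.

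**Figure D2:**
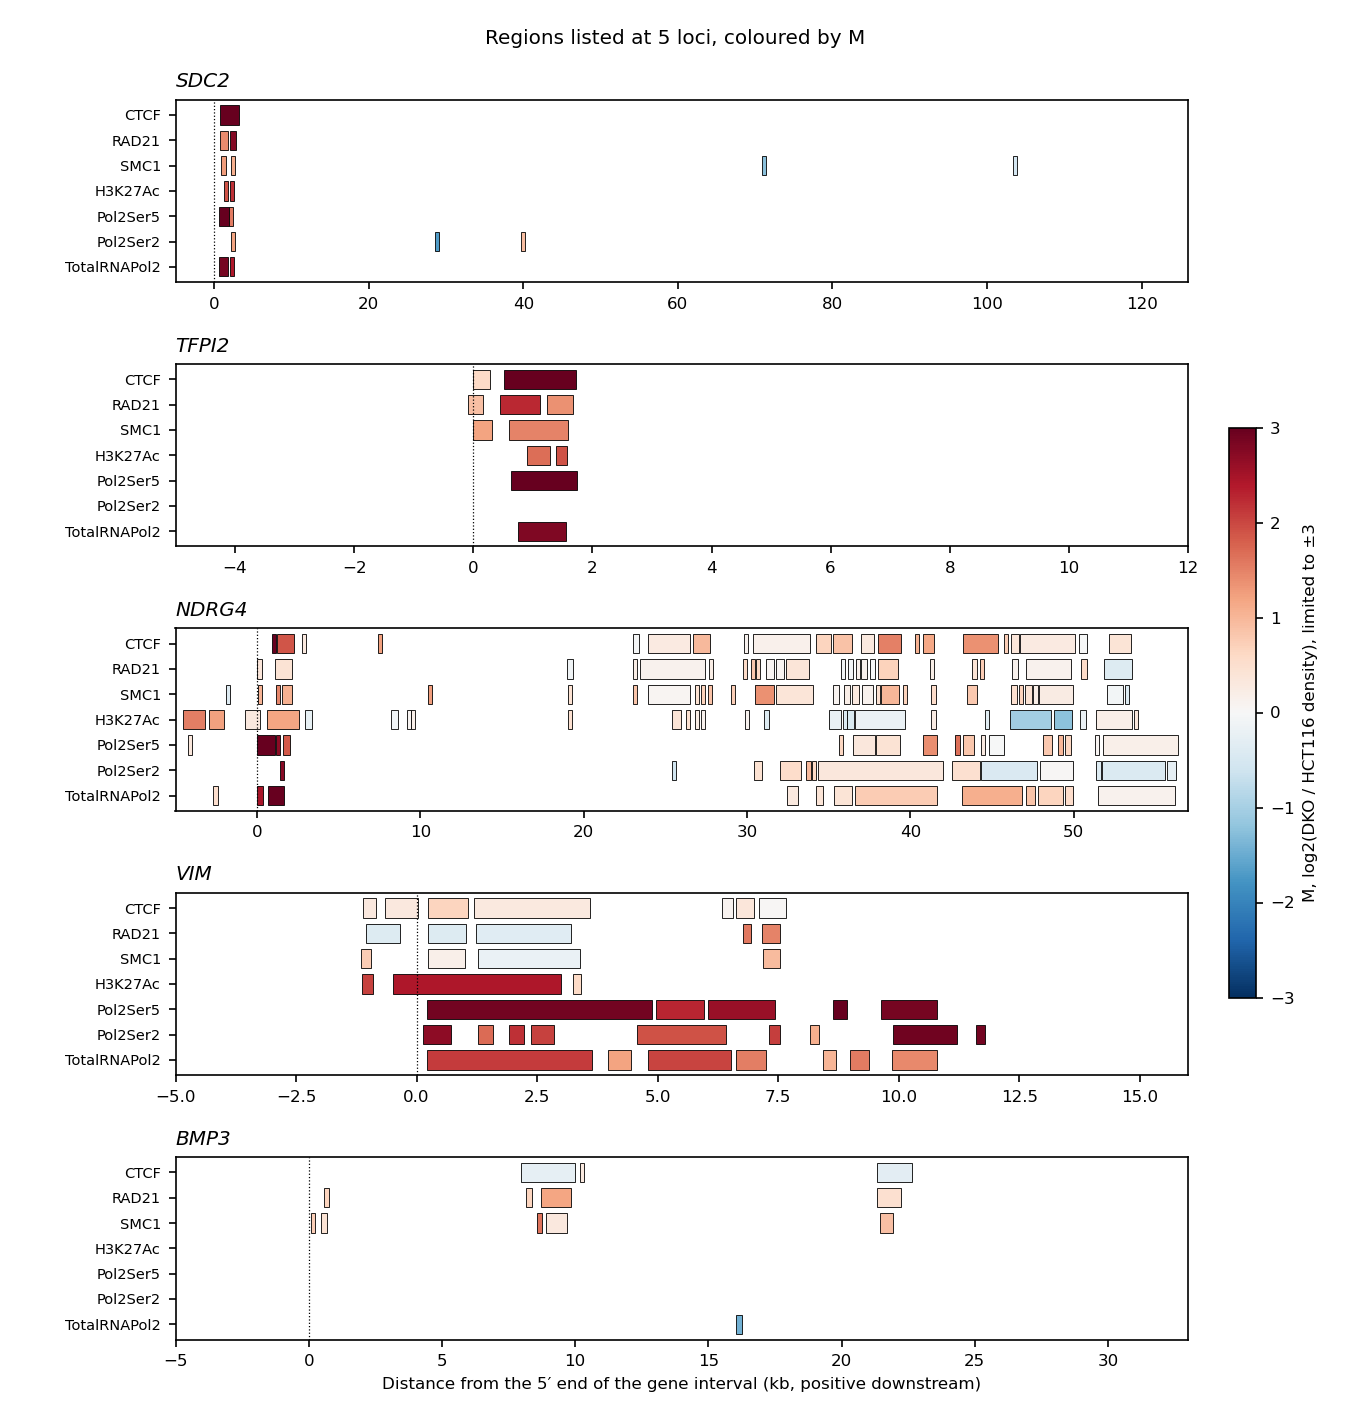
Regions of the 7 targets at SDC2, TFPI2, NDRG4, VIM and BMP3 against the distance in kb from the 5′ end of the gene interval, coloured by M (red higher in DKO, blue higher in HCT116, limited to 3 on either side); very short regions are drawn wider than they are. The red blocks of SDC2 and TFPI2 lie within 3.2 and 1.7 kb of the 5′ end, and red polymerase regions are spread along VIM.

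BMP3 had regions in 4 of 7 tables, the fewest of the 6 genes. It had no region for H3K27Ac, Pol2Ser5 or Pol2Ser2 in either line, and its sole TotalRNAPol2 region, at 16.0 kb, had 11 DKO reads and 38 HCT116 reads, with M of -1.43 (-2.64 to -0.53). At the 5′ end RAD21 had 49 DKO reads and 22 HCT116 reads, with M of 0.67 and a counting interval that included 0, and SMC1 had 65 and 65 reads in DKO, against 31 and 38 in HCT116, with M of 0.73 and 0.44. No CTCF region lay within 2 kb of the 5′ end. The TotalRNAPol2 region at 16.0 kb was the only polymerase region of the gene. That region was called in HCT116 only, so no acetylation or polymerase region was called at this gene in DKO. A gene can carry signal below the authors' calling threshold, which the tables do not show.

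The CTCF sites inside BMP3 were present in both lines. The region at 8.0 kb had 162 DKO reads and 198 HCT116 reads, with M of -0.26 (-0.57 to 0.05), and the region at 21.3 kb had 167 and 212 reads, with M of -0.31 (-0.61 to -0.01). Cohesin over the region at 8.0 kb was nevertheless higher in DKO, where RAD21 had 159 DKO reads and 58 HCT116 reads, with M of 1.19 (0.76 to 1.66). At 21.3 kb RAD21 had 151 DKO reads and 93 HCT116 reads, with M of 0.48 (0.10 to 0.87), and SMC1 at 21.4 kb had 69 and 29 reads, with M of 0.91 (0.29 to 1.62). RAD21 regions called in both lines within 1 Mb had a median M of 0.38, and after its removal M at 8.7 kb was 0.81. SMC1 over the same site had 48 and 69 reads in DKO, against 12 and 44 in HCT116, with M of 1.62 (0.77 to 2.75) and 0.32 (-0.23 to 0.91).

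SEPT9 was densely covered, and its 5′ end had strong signal in both lines. The nearest CTCF region had 243 DKO reads and 200 HCT116 reads, with M of 0.33 (0.06 to 0.61), which became -0.10 when the median of chromosome 17 was removed. The nearest RAD21 region had 180 DKO reads and 206 HCT116 reads (M of -0.32), SMC1 had 145 and 136 (M of -0.25), and Pol2Ser2, at 0.5 kb, 46 and 38 (M of 0.75, 0.11 to 1.42). H3K27Ac had 467 and 626 reads in DKO, against 855 and 1053 in HCT116, with M of -0.80 and -0.70. Pol2Ser5 had 449 and 443 reads in DKO at the nearest regions, against 347 and 306 in HCT116, with M of -0.49 and -0.32. TotalRNAPol2 had 179 DKO reads and 214 HCT116 reads, with M of -0.99 (-1.29 to -0.70), and -1.35 with the chromosome median removed. The next TotalRNAPol2 region, with 402 DKO reads and 241 HCT116 reads, had M of -0.21 (-0.44 to 0.03). The 5′ end of SEPT9 was thus acetylated and occupied by polymerase in HCT116, and no target was 2-fold higher in DKO there.

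The interior of SEPT9 held CTCF regions that were higher in DKO. Of 54 CTCF regions, 13 (24.1%) passed 2-fold with more signal in DKO, near the 20.1% of the whole table, and none was 2-fold higher in HCT116, against 6.33% of the table. Of the 13, 7 stayed past 2-fold with M recentred on the table's median, and likewise 7 with the chromosome median or the median within 1 Mb removed. All 13 were called in DKO only, and they lie between 40.7 and 156.5 kb. The highest, chr17:75368917-75369329 at 91.9 kb, had 93 DKO reads and 17 HCT116 reads, with M of 2.22 (1.53 to 3.13). Its neighbour at 92.6 to 94.4 kb had 172 DKO reads and 35 HCT116 reads, with M of 2.19 (1.69 to 2.79). At 124.2 kb the reads were 125 in DKO and 27 in HCT116, with M of 2.06 (1.49 to 2.75), and at 156.1 kb 69 in DKO and 16 in HCT116, with M of 1.86 (1.12 to 2.81). The lowest CTCF value of the gene, at 84.6 kb, came from 42 DKO reads and 62 HCT116 reads, with M of -0.68 (-1.29 to -0.11).

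The strongest CTCF sites of SEPT9 were similar. The region at 48.1 kb had 604 DKO reads and 573 HCT116 reads, with M of 0.26, the region at 146.5 kb had 603 and 518, with M of 0.39, and the region at 212.5 kb had 692 and 625, with M of 0.34. The 13 CTCF regions called in both lines had a median M of 0.39 and none passed 2-fold, while the 35 called in DKO only had a median M of 0.82. A region called in DKO alone tends to have a high M by the way it was called, so these medians are a description. Regions called in both lines within 1 Mb had a median CTCF M of 0.30.

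The other targets differed in how far they followed at 91.9 kb, where CTCF had its highest ratio. SMC1 had 117 DKO reads and 34 HCT116 reads, with M of 1.43 (0.90 to 2.06). TotalRNAPol2 had 151 DKO reads and 48 HCT116 reads, with M of 1.27 (0.81 to 1.79), and 0.92 with the chromosome median removed. The other regions over this CTCF region stayed within 2-fold: M was -0.13 for RAD21 (79 DKO reads and 70 HCT116 reads), 0.84 for H3K27Ac, 0.40 for Pol2Ser5 and 0.32 for Pol2Ser2. The neighbouring H3K27Ac region, at 92.5 kb, had 327 DKO reads and 143 HCT116 reads, with M of 1.35 (1.06 to 1.65). Whether the internal promoter that carries the blood marker lies here was not examined, since no hg19 annotation was used. At 123.8 kb RAD21 had 141 DKO reads and 47 HCT116 reads, with M of 1.28 (0.82 to 1.81). This region overlaps the CTCF region at 124.2 kb that was higher in DKO.

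A second place stood out for acetylation and polymerase. H3K27Ac at 107.2 kb had 374 DKO reads and 115 HCT116 reads, with M of 1.85 (1.56 to 2.18), the highest of its 110 regions in the gene. Pol2Ser5 at 108.6 kb had 207 DKO reads and 32 HCT116 reads, with M of 1.88 (1.37 to 2.50). TotalRNAPol2 at 107.4 kb had 267 DKO reads and 77 HCT116 reads, with M of 1.18. Lower values in DKO were found for several targets between 184.0 and 195.9 kb, where H3K27Ac had 105 and 125 reads in DKO at the widest regions, against 393 and 379 in HCT116, with M of -1.73 (-2.07 to -1.43) and -1.43 (-1.75 to -1.15). Pol2Ser5 there had 39 DKO reads and 57 HCT116 reads (M of -1.29), RAD21 31 and 56 (M of -1.24), TotalRNAPol2 63 and 122 (M of -1.32), and SMC1 35 and 51 (M of -0.84). CTCF in this stretch, at 187.4 and 188.5 kb, had M of 0.53 and 0.68, with 94 and 61 reads in DKO, against 61 and 34 in HCT116. RAD21 at 187.7 kb had M of 0.45, and at 196.9 kb, just beyond, 50 DKO reads and 17 HCT116 reads, with M of 1.03. H3K27Ac was also lower in DKO from 51.2 to 52.7 kb, with M between -1.72 and -1.14. Pol2Ser2, the elongating form, had no region past 2-fold higher in DKO in SEPT9. Its highest, at 159.7 kb, had 50 DKO reads and 38 HCT116 reads, with M of 0.85, and its lowest, at 76.8 kb, had 27 DKO reads and 81 HCT116 reads, with M of -1.12.

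**Figure D3:**
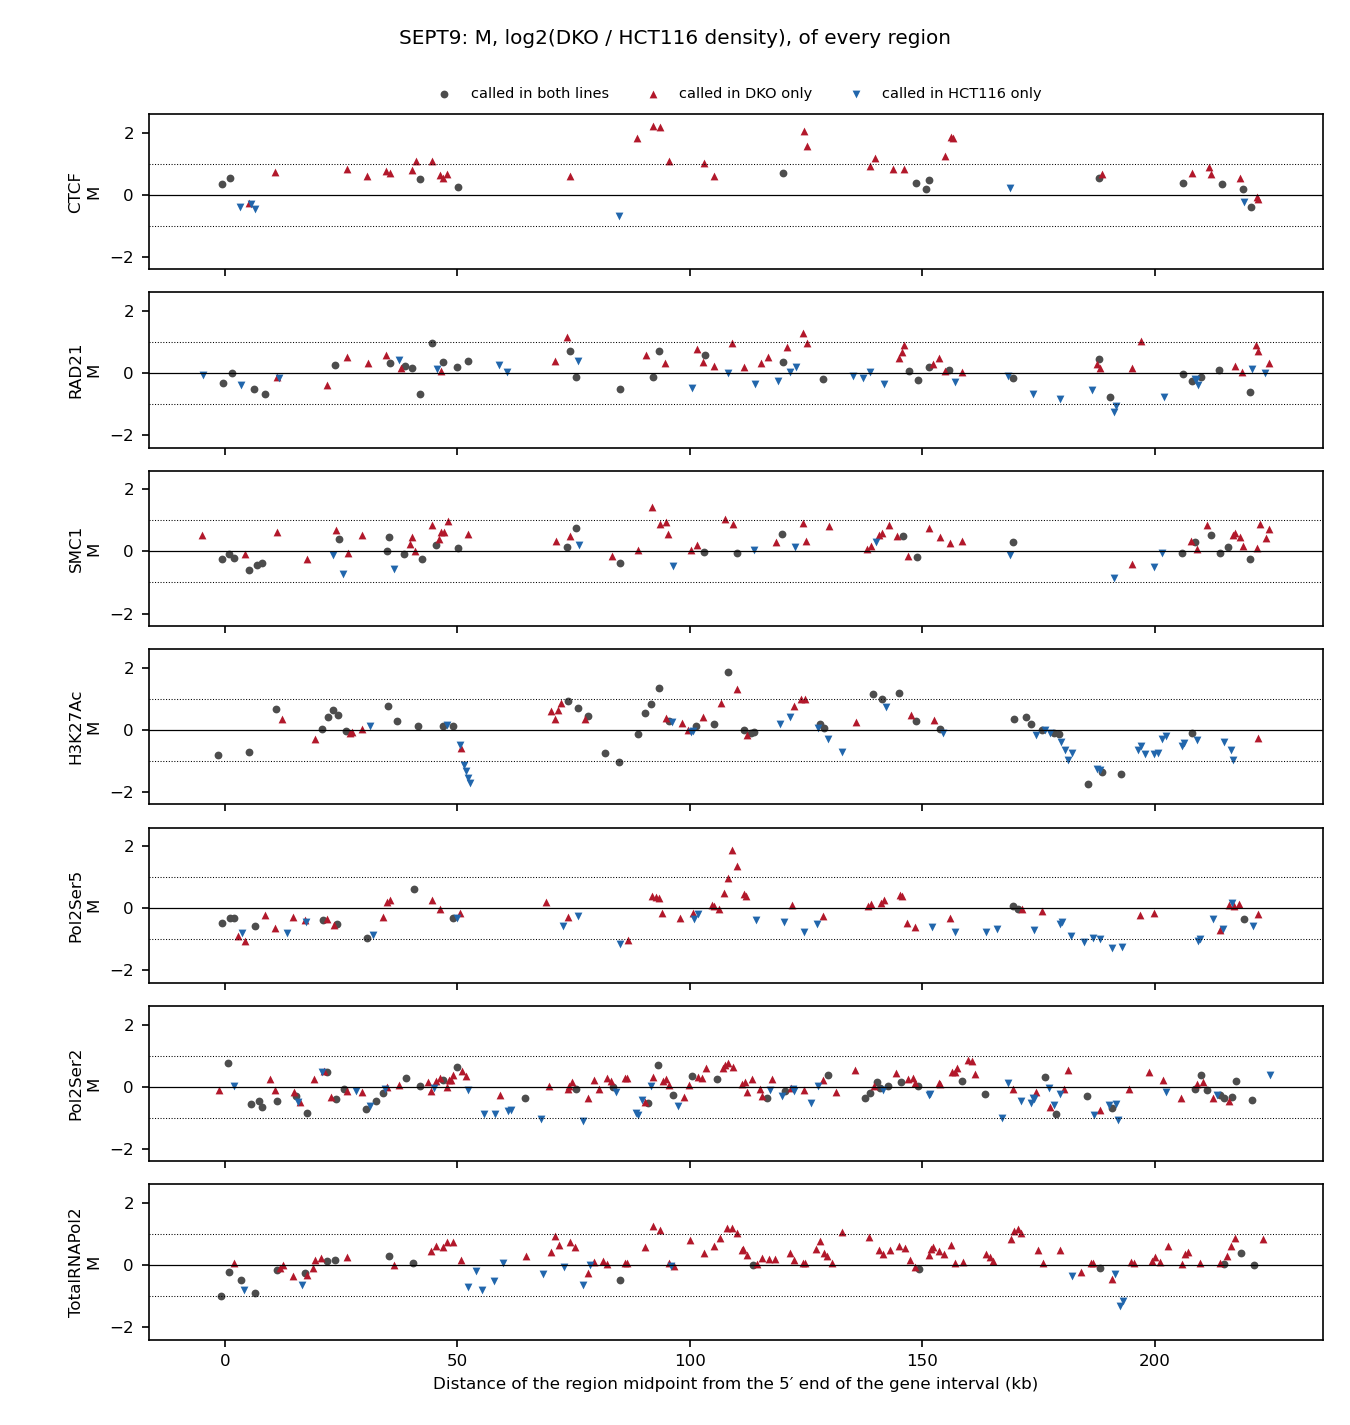
M of each of the 773 SEPT9 regions by target against the distance in kb of the region's midpoint from the 5′ end; symbols show in which line the authors called the region, and dotted lines mark a 2-fold difference. CTCF points reach 2.22 at 91.9 kb, H3K27Ac points reach -1.73 near 184.0 kb, and the points at the 5′ end lie within 1 of 0.

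Counted over all 6 genes, the members were set beside their whole tables. For CTCF, 22 of 88 members (25.0%) were higher in DKO, against 20.1% of all regions, and 0 were higher in HCT116, against 6.33%. Recentred on the table's median, 13 CTCF members were higher in DKO, and with the chromosome median removed 12 were, with 1 higher in HCT116. For RAD21, 10 of 140 (7.14%) were higher in DKO, against 13.7% of all regions, and 2 (1.43%) in HCT116, against 8.70%. For SMC1, 12 of 140 (8.57%) were higher in DKO, against 9.36%, and 1 (0.714%) in HCT116, against 4.67%. The cohesin shares in DKO were thus at or below those of the tables, and the CTCF share was close to its table's.

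For H3K27Ac, 14 of 143 members (9.79%) were higher in DKO, against 11.0% of all regions, and 12 (8.39%) in HCT116, against 10.4%. For Pol2Ser5, 16 of 122 (13.1%) were higher in DKO, against 14.9%, and 8 (6.56%) in HCT116, against 21.0%. For Pol2Ser2, 11 of 206 (5.34%) were higher in DKO, against 18.6%, and 4 (1.94%) in HCT116, against 10.9%. For TotalRNAPol2, 22 of 158 (13.9%) were higher in DKO, against 20.7%, and 3 (1.90%) in HCT116, against 10.2%. The polymerase splits depended on the scaling: with M recentred on the median of the table, Pol2Ser2 had 10 members higher in DKO and 12 in HCT116, and TotalRNAPol2 had 11 and 7. Removing the chromosome median gave 15 and 12 for Pol2Ser5, and 8 and 2 for SMC1.

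The pooled counts were set by SEPT9, which holds most of the regions. Outside SEPT9, 14 of 25 Pol2Ser5 regions (56.0%) were higher in DKO, 13 of 23 TotalRNAPol2 regions (56.5%) and 11 of 25 Pol2Ser2 regions (44.0%). In SEPT9 the shares were 2.06%, 6.67% and 0%. H3K27Ac gave 27.3% of 33 regions outside SEPT9 and 4.55% of 110 in it, RAD21 17.9% of 39 and 2.97% of 101, and SMC1 22.2% of 45 and 2.11% of 95. CTCF alone gave nearly the same share, 26.5% of 34 regions outside SEPT9 and 24.1% of 54 in it. Neighbouring regions of a gene share reads, and 102 of 122 Pol2Ser5 members and 42 of 88 CTCF members share a counting window with another, so these shares are not over independent observations.

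**Figure D4:**
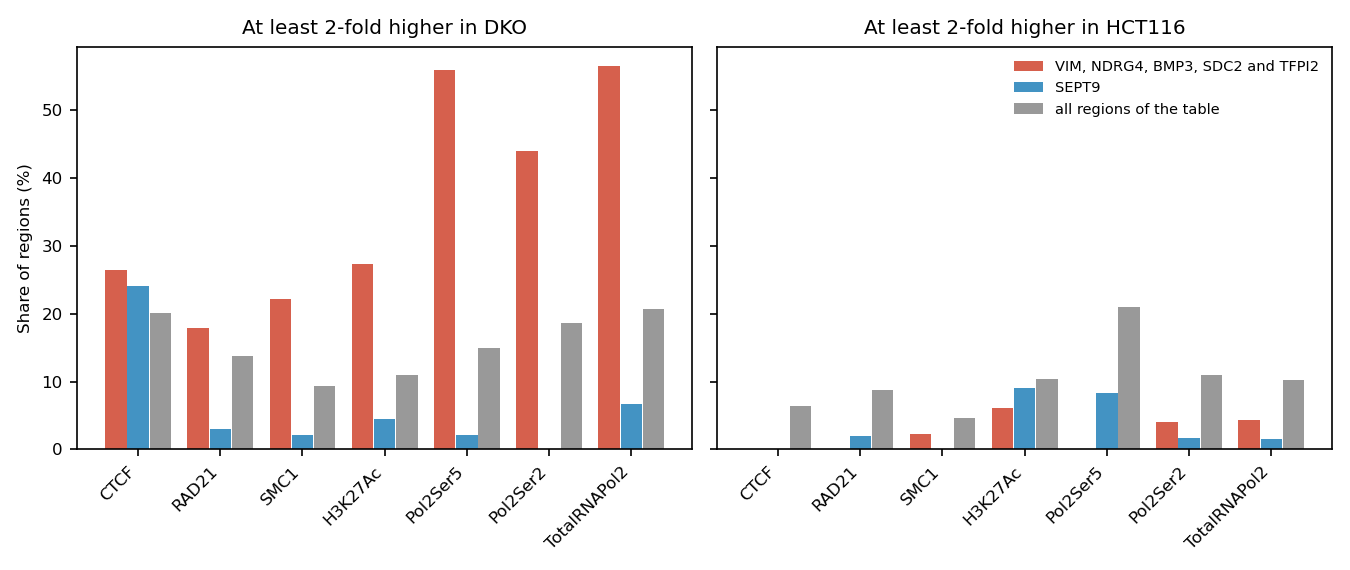
Share of regions in percent that were at least 2-fold higher in DKO (left) or in HCT116 (right), by target, for the 5 genes other than SEPT9, for SEPT9 and for all regions of the table. For Pol2Ser5 the share higher in DKO was 56.0% outside SEPT9, 2.06% in SEPT9 and 14.9% in the table.

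The other targets were also read at the CTCF members themselves, taking regions that share at least 1 bp. The numbers count CTCF members, and a region that overlaps several of them was counted under each. The NDRG4 TotalRNAPol2 region with 104 DKO reads and 9 HCT116 reads was counted repeatedly, as was the VIM Pol2Ser5 region with 98 and 9. The numbers are therefore not over distinct regions. Of the 9 CTCF members higher in DKO outside SEPT9, 7 overlapped a Pol2Ser5 region, and 5 of these were higher in DKO. Likewise 8 overlapped TotalRNAPol2, 5 of them higher in DKO, and 7 overlapped H3K27Ac, 4 of them higher in DKO. Over all regions outside SEPT9 the shares higher in DKO were 56.0% for Pol2Ser5, 56.5% for TotalRNAPol2 and 27.3% for H3K27Ac. Of the 13 CTCF members higher in DKO in SEPT9, 6 overlapped Pol2Ser5 with 0 higher in DKO, 11 overlapped TotalRNAPol2 with 2 higher, and 10 overlapped H3K27Ac with 2 higher. Over all SEPT9 regions the shares higher in DKO were 2.06%, 6.67% and 4.55% for these targets. Outside SEPT9, 7 of the CTCF members higher in DKO overlapped RAD21, 2 of them higher in DKO, and 6 overlapped SMC1, 4 of them higher. Over all regions outside SEPT9 these shares were 17.9% and 22.2%. In SEPT9, 8 overlapped RAD21 with 1 higher in DKO and 11 overlapped SMC1 with 1 higher. Over all SEPT9 regions these shares were 2.97% and 2.11%. Of the 36 CTCF members that were similar, 26 overlapped SMC1 with 0 higher in DKO and 29 overlapped RAD21 with 3 higher in DKO. For the other targets the numbers were 4 of 20 for Pol2Ser5, 3 of 23 for Pol2Ser2, 5 of 25 for TotalRNAPol2 and 4 of 23 for H3K27Ac, which had 2 higher in HCT116. The shares higher in DKO over all members were 7.14% for RAD21, 8.57% for SMC1, 13.1% for Pol2Ser5 and 5.34% for Pol2Ser2. They were 13.9% for TotalRNAPol2 and 9.79% for H3K27Ac, which had 8.39% higher in HCT116.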

How the data were processed

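Chromatin immunoprecipitation of 7 targets was sequenced in DKO and HCT116 cells, 14 libraries and 2 inputs. The inputs were left out. The submitters' processing notes name BWA and hg19 for alignment, and MACS2 for all targets but TotalRNAPol2. Versions and peak thresholds were not given in the sources used here. A table per target lists regions called in DKO, in HCT116 or in both, with a normalized read density as signal, deposited by the authors. M and A are the log2 ratio and mean log2 density deposited by the authors. The p-value per region, deposited by the authors, was used in 1 alternative alone. Each table was normalized separately, so levels were compared within a table.

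Reads were recovered from M and A with python 3.11.15, numpy 2.4.6, pandas 2.3.3 and scipy 1.17.1. The log2 ratio of reads, with 1 added to each, equalled M plus a line in A, and 100% of values were whole within 0.05. Reads had been counted in windows of 1 kb (CTCF and cohesin) or 2 kb (acetylation and polymerase). The slope of the line was steepest in the Pol2Ser2 table (0.33) and the TotalRNAPol2 table (0.32), so the scaling between the lines varied with level in these tables. The recovery was tested on simulated data. Intervals are exact (Clopper-Pearson, 95%) and cover counting error only. They treat reads as independent and do not allow for PCR reads, which are not independent molecules. Library totals were left aside, and the reads per window show the depth.

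The genes, lists and thresholds were chosen with earlier results of these data known. The text names, per gene and target, the region nearest to the 5′ end and the highest and lowest M among dense regions, in which the larger of both densities was no less than its median over the table. Other regions were named after their values were seen. A list of further colorectal methylation markers was not used, because no hg19 gene positions were at hand. RefSeq promoter windows matched 4 of the 6 genes by symbol.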

Additional observations from a re-analysis of the deposited data

How the results depend on the processing

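No paired analysis was possible because each line had 1 library per target and no result came from a test; for the same reason no replicate could be left out. M at the region nearest to the 5′ end was available for 35 pairs of gene and target, of which 19 were at least 2-fold higher in DKO. Of these 19, 18 stayed past 2-fold with M recentred on the table's median, 19 with constant centring, 18 with the chromosome median removed and 19 with the densest region within 2 kb. With the median within 1 Mb removed, an alternative added after seeing the data, 13 of 15 stayed. The sign of M changed once with the chromosome median removed and once with the densest region.

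The counts of members moved more, and the cause was not tested beyond what each setting does by construction. In what follows a pair gives the members higher in DKO, then those higher in HCT116. Recentring gave 13 CTCF members higher in DKO, 12 Pol2Ser2 members higher in HCT116, and 11 and 7 for TotalRNAPol2. It subtracts the table's median of M, which is -0.05 in the H3K27Ac table, 0.00 in the Pol2Ser5 table, 0.27 in the TotalRNAPol2 table, 0.26 in the CTCF table, 0.17 in the Pol2Ser2 table, 0.16 in the SMC1 table and 0.14 in the RAD21 table. Constant centring shifted the table median by -0.24 (Pol2Ser2) and -0.29 (TotalRNAPol2), and gave 1 RAD21, 8 Pol2Ser2 and 5 TotalRNAPol2 members higher in HCT116. With the chromosome median removed the counts were 12 and 1 for CTCF and 11 and 10 for TotalRNAPol2, and 2 SMC1 and 12 Pol2Ser2 members were higher in HCT116.

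Filters leave fewer regions. With densities at or above the median, 0 SMC1 and 2 Pol2Ser2 members were higher in HCT116. With a deposited p under 1e-05, 5 SMC1, 9 Pol2Ser5, 4 Pol2Ser2 and 12 TotalRNAPol2 members were higher in DKO, and 0 RAD21, 0 SMC1, 6 H3K27Ac, 0 Pol2Ser5, 0 Pol2Ser2 and 1 TotalRNAPol2 in HCT116. Among regions called in both lines, 2 CTCF members were higher in DKO, and the pairs were 8 and 5 for H3K27Ac, 2 and 0 for RAD21, 0 and 0 for Pol2Ser2, and 1 and 0 each for SMC1, Pol2Ser5 and TotalRNAPol2. Most members past 2-fold were thus called in 1 line. With 1 region per counting window, 1 RAD21 member was higher in HCT116, the H3K27Ac pair was 8 and 6, and 8 Pol2Ser5, 7 Pol2Ser2 and 13 TotalRNAPol2 members were higher in DKO.

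At 1.5-fold the pairs were 44 and 10 for TotalRNAPol2, 25 and 23 for Pol2Ser2, 30 and 25 for H3K27Ac, 43 and 4 for SMC1, 46 and 1 for CTCF and 29 and 9 for RAD21, with 26 Pol2Ser5 members higher in HCT116. At 4-fold 6 CTCF members were higher in DKO, and the pairs were 9 and 0 for Pol2Ser5, 7 and 0 each for Pol2Ser2 and TotalRNAPol2, 3 and 0 for H3K27Ac, 2 and 0 for RAD21, and 0 and 0 for SMC1. Leaving out the flanks, or requiring the midpoint inside, moved no count by over 1.5 times.

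Depth limits the weak regions: members had as few as 4 DKO reads and 1 HCT116 reads, and their intervals are wide. A 1-library design cannot separate the lines from the libraries.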
